A study of Mus musculus with 16 samples.

Results

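Claudins are the membrane proteins that build the tight junction, the seal between neighbouring epithelial cells. The 7 described here, Cldn2, Cldn3, Cldn4, Cldn7, Cldn8, Cldn15 and Cldn23, were taken as those of the intestinal lining, with every array probe annotated to them. They are 7 of 16593 genes with a probe and use 10 of 25697 probes. All 7 passed the filter of the fit (a probe detected at p under 0.05 on at least 2 arrays), among 11230 genes that did, but Cldn8 passed by only 2 of 14 arrays.

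Illumina bead arrays for the mouse read the messenger RNA of 16 dissected and frozen pieces of mucosa or tumour from mice of 1 mixed strain (B6/129/Balbc/CD1). All mice, wild type (wt) included, received doxycycline from 6-7 weeks of age. The colon groups were LIN28B/Apcmin adenomas (iLIN28B; Apcmin/+, 4 arrays), Apcmin adenomas (Apcmin/+, 2 arrays) and normal wt mucosa (2 arrays). The small intestinal groups were LIN28B/Apcmin adenomas, LIN28B tumours (iLIN28B, labelled adenoma/adenocarcinoma), Apcmin adenomas and normal wt mucosa, with 2 arrays each. The titles mark LIN28B replicate 2 as Jej and every other small intestinal array as D, so the LIN28B group mixes segments of gut. The LIN28B tumours came from mice aged 8 months, all the others from mice aged 3 months, so age and genotype cannot be told apart for them. Apcmin truncates Apc, a protein that holds back Wnt signalling, and iLIN28B is an inducible form of an RNA-binding protein that blocks let-7 microRNAs. The promoter that drives it is not given in the sources used here.

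On 14 arrays 48.3% to 56.5% of probes were detected, against 12% on replicate 4 of LIN28B/Apcmin colon and 5.28% on replicate 1 of wt small intestine. These 2 arrays were left out of all values below. This leaves 3 LIN28B/Apcmin colon arrays and a single wt small intestinal array (replicate 2), which the fit assumes to vary like the other groups. With all 16 arrays fitted and no signal set to missing, no claudin passed the threshold in any comparison. Nearly all calls of other genes were lost too: at most 85 of 11370 genes passed in any comparison. In the values used below, LIN28B/Apcmin colon replicate 3 had 1985 signals under 25, set to missing. The number that opens each title is 2135 on all 3 LIN28B/Apcmin colon arrays and 1737 on both LIN28B arrays, and 1032 on wt colon replicate 2 and the wt small intestinal array. Should that number identify a mouse, the LIN28B/Apcmin colon and LIN28B groups hold 1 mouse each, whose own effect and that of its genotype cannot be told apart. The p-values measure only the spread between these pieces of tissue. Lin28b was not analysed here, and of 2 Apc probes 1 was detected on all 14 arrays and the other on 1, which does not check a truncating allele. A list of 8 small intestinal enterocyte markers summed to 213 to 421 in the colon and 16800 to 80100 in the small intestine, so organ labels and content went together.

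Claudins of facing cells meet in the space between them and either close it or leave small pores. Cldn2 and Cldn15 form pores for sodium and other cations, and mice that lack Cldn15 develop an enlarged small intestine. Cldn3 and Cldn4 are counted among the sealing claudins, and Cldn8 limits sodium leak in the distal colon. Cldn7 lies along the side and base of the cell, where it binds the adhesion protein EpCAM, and mice that lack it lose intestinal integrity. Cldn23 is known from the differentiated surface of the colon.

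The start regions of Cldn2, Cldn15, Cldn3 and Cldn4 are shown because these are the members that passed the test in at least 1 comparison. They are taken from RefSeq on GRCm38.p6, 250 bases before to 50 bases after the annotated start, 5′ to 3′ on the gene's strand. Capitals mark matches, on either strand, to the cores CTTTG (TCF/LEF, the factors at the end of Wnt signalling), TTTAT (CDX), GTTAAT (HNF1), CAGGTG (a Snail-type E-box) and TGANTCA (AP-1). The Cldn2 window is chrX:139800558-139800857, plus strand, that of Cldn15 chr5:136967619-136967918, plus strand, that of Cldn3 chr5:134985964-134986263, plus strand, and that of Cldn4 chr5:134946885-134947184, minus strand.
Cldn2: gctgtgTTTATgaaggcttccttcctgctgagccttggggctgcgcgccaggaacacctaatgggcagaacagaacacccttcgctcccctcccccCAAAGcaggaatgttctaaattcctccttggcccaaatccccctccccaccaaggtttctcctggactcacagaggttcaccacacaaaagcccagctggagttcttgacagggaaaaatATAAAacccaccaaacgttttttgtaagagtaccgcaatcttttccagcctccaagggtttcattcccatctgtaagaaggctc
Cldn15: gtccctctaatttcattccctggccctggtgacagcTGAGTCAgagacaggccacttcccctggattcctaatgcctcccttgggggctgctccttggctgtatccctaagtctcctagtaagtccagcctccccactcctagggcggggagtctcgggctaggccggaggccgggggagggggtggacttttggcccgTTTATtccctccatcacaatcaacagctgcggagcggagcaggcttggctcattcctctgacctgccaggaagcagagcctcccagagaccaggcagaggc
Cldn3: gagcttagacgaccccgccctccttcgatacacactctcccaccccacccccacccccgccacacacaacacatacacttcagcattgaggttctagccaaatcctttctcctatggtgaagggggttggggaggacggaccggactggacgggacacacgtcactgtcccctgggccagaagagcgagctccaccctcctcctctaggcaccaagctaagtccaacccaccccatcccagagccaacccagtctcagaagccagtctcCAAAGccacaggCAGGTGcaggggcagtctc
Cldn4: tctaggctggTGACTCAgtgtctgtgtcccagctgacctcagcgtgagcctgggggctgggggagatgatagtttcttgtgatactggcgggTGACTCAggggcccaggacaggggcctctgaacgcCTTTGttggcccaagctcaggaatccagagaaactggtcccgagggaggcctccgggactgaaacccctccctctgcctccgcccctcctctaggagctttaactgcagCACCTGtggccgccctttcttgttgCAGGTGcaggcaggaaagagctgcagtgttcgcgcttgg
With the start site counted as 1, the Cldn2 window held TTTAT at -244 to -240 and at -34 to -30, and CTTTG at -154 to -150. The Cldn15 window held TTTAT at -51 to -47 and TGANTCA at -214 to -208, and no CTTTG. The Cldn3 window held CTTTG at 20 to 24 and CAGGTG at 32 to 37. The Cldn4 window held CTTTG at -123 to -119, CAGGTG at -14 to -9 and at 12 to 17, and TGANTCA at -240 to -234 and at -158 to -152. No marked matches overlapped, and GTTAAT was in none of the windows. Among 32851 RefSeq windows of the same length, 53.9% held CTTTG, 40% TTTAT, 20.2% CAGGTG, 7.81% TGANTCA and 7.1% GTTAAT, so the first 2 are common in any such window. A match describes letters and is not a binding site. On the same build Cldn7 lies at chr11:69964779-69967886, Cldn8 at chr16:88560826-88563183 and Cldn23 at chr8:35824709-35826559. Cldn4 and Cldn3 lie 39.3 kb apart on chromosome 5 with 0 annotated genes between them, pointing away from each other.

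In the colon the pore former Cldn15 was lower and the sealing claudin Cldn4 was higher in Apcmin adenomas than in wt mucosa. All values are normalised log2 intensities (background corrected and quantile normalised), on which 1 unit is a doubling, and a probe's level is compared only between samples. Cldn15 read 8.49 and 8.49 in Apcmin colon, against 11.14 and 10.96 in wt colon. The groups did not overlap and lay far apart. The fitted difference was -2.56 ± 0.38 (log2, SE), 5.90-fold lower, with an adjusted p of 0.0016. Cldn4 read 12.78 and 12.39 in Apcmin colon, against 10.60 and 10.48 in wt colon, again without overlap. Its difference was 2.05 ± 0.36, 4.14-fold higher, with an adjusted p of 0.00409. Tests here and below are limma's moderated test over 11230 genes, two-sided, with Benjamini-Hochberg adjustment within each comparison. In this comparison 14.6% of all genes passed the threshold of 0.05, 6.64% upward and 7.91% downward, and 2 of 7 claudins did, 1 in each direction. Over the 6 claudins detected on all 14 arrays, which leave out Cldn8, the median difference was -0.27, against 0.02 over all genes.

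The same 2 claudins passed, in the same directions, in LIN28B/Apcmin colon adenomas against wt colon, and Cldn3 passed there too. These 2 comparisons share the wt arrays. Cldn15 read 8.87, 7.47 and 7.97 in LIN28B/Apcmin colon, all below wt colon and spread over more than 1 log2 unit. The difference was -2.95 ± 0.35, 7.72-fold lower (adjusted p 0.000181). Cldn4 read 12.96, 12.56 and 12.53 in LIN28B/Apcmin colon, all above wt colon, and was 2.14 ± 0.33 higher (adjusted p 0.000935). Cldn3 read 10.94, 11.28 and 10.93 in LIN28B/Apcmin colon, against 11.79 and 11.64 in wt colon. Its difference was -0.67 ± 0.17 (log2), 1.59-fold lower (adjusted p 0.0168). The Cldn3 call was lost without wt colon replicate 1 (adjusted p 0.136), without wt colon replicate 2 (0.0719) and with the 3 arrays of number 2135 averaged (0.0994). In all, 3 of 7 claudins passed, 1 higher and 2 lower, where 27.9% of all genes did, 13.7% upward and 14.2% downward. The median difference of the 6 detected claudins was -0.32, against 0.04 over all genes. Cldn2 passed in neither colon tumour group against wt, though each tumour array lay above both wt arrays. It read 10.76, 11.03 and 10.90 in LIN28B/Apcmin and 11.06 and 11.12 in Apcmin colon, against 10.35 and 10.62 in wt colon. The difference from wt was 0.41 ± 0.18 in LIN28B/Apcmin colon (adjusted p 0.115) and 0.61 ± 0.20 in Apcmin colon (adjusted p 0.065).

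The pieces of tissue differed in more than the epithelium, and fewer cells of a type and less RNA per cell cannot be told apart in such samples. Marker lists were summed on the linear scale of the normalised intensities. The 8 epithelial markers measured, of 9 listed, summed to 25600 to 34500 in LIN28B/Apcmin, 30000 to 32900 in Apcmin and 40600 to 41400 in wt colon, and 1 of 8 was lower in each colon tumour group. The 9 smooth muscle markers summed to 7190 to 9370 in LIN28B/Apcmin, 12100 to 14000 in Apcmin and 50600 to 53000 in wt colon, and 9 and 7 of 9 were lower than in wt. The 9 colonocyte markers summed to 713 to 1810 in LIN28B/Apcmin, 3250 to 3530 in Apcmin and 33100 to 36100 in wt colon. Of these markers 7 and 6 of 9 were lower than in wt. The 6 crypt and stem cell markers ran the other way, at 4910 to 5310, 4630 to 4890 and 1230 to 1330 in the same order. The 5 myeloid markers summed to 11200 to 12100 in LIN28B/Apcmin and 6660 to 8950 in Apcmin, against 913 to 971 in wt colon. For goblet cells 6 markers summed to 11400 to 14900 in LIN28B/Apcmin, 42100 to 42900 in Apcmin and 69000 to 71400 in wt colon. Of these 6 and 3 of 6 were lower than in wt. For Paneth cells 5 markers summed to 20200 to 32400, 34500 to 38800 and 18700 to 20400 in the same order. Of these 3 and 4 of 5 were higher than in wt, and 1 and 0 were lower. In the small intestine LIN28B/Apcmin against Apcmin tumours had 2780 to 8280 and 14900 to 18700 for smooth muscle, with 5 of 9 lower, and 24800 to 33400 and 30900 to 41600 for epithelium, with 0 of 8 called. In that comparison the 5 Paneth cell markers summed to 19300 to 26900 in LIN28B/Apcmin, against 50000 to 73900 in Apcmin (3 of 5 lower). The 6 goblet cell markers summed to 26500 to 28300 in LIN28B/Apcmin, against 43300 to 61000 in Apcmin (1 of 6 lower). Of 8 gastric and Brunner gland markers 3 were higher, with sums of 1370 to 3600 in LIN28B/Apcmin and 1450 to 24300 in Apcmin. The part of these shifts in the claudin results was not tested.

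**Figure D1:**
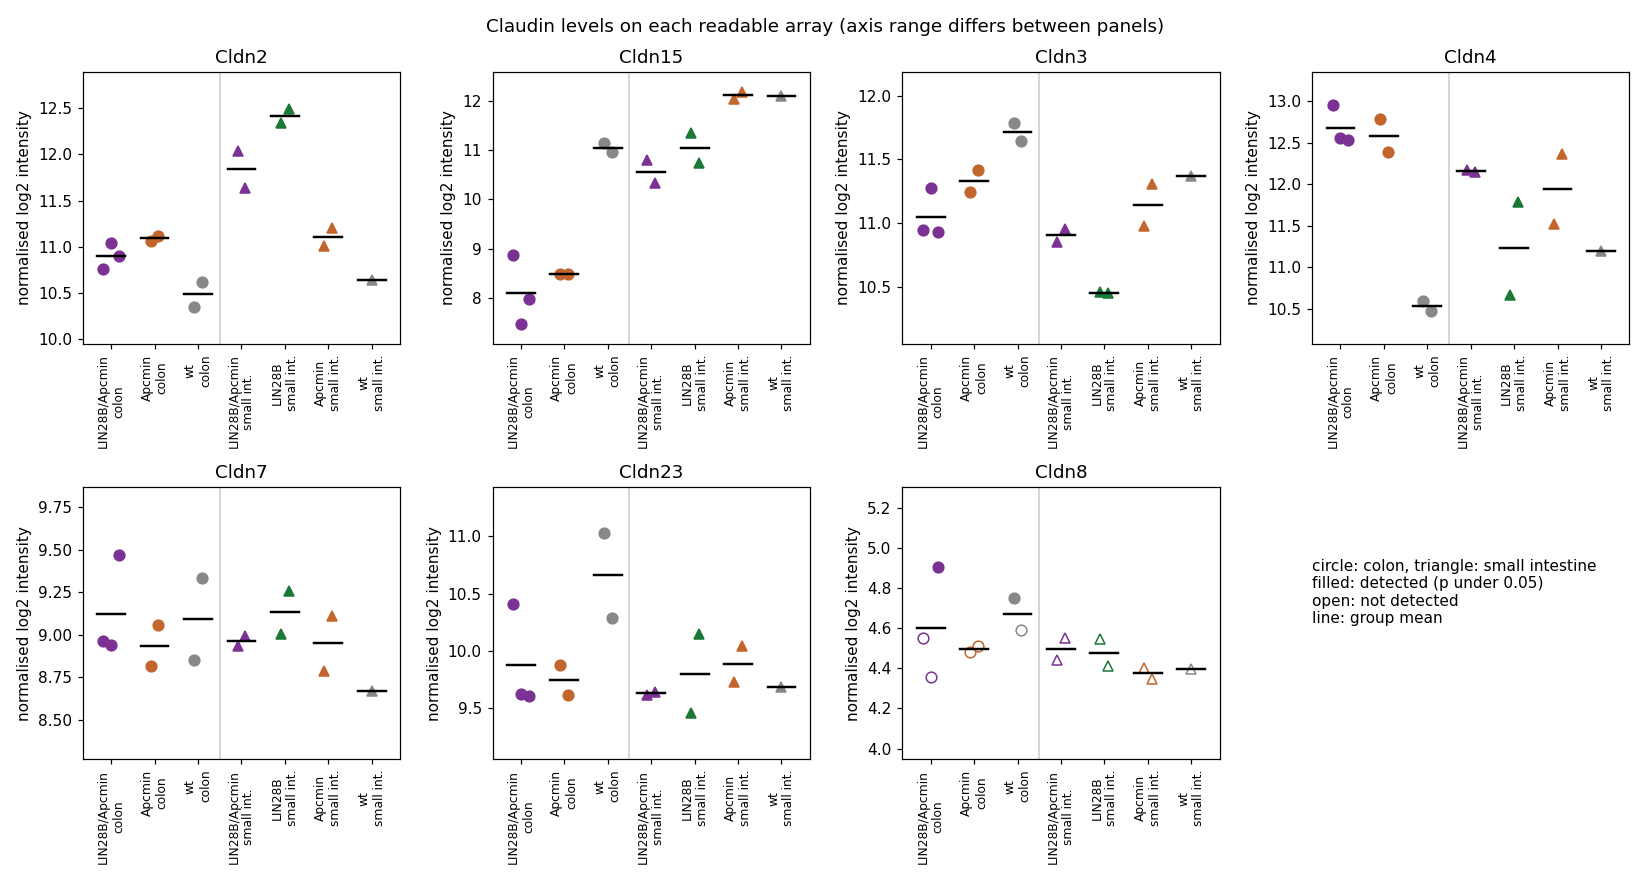
Normalised log2 intensity (y axis) of the main probe of each claudin on each of the 14 readable arrays, by group (x axis), with colon groups left of the grey line and group means as black lines. Cldn15 is low in both colon tumour groups, Cldn4 is high in them, Cldn2 is high in LIN28B and LIN28B/Apcmin small intestinal tumours, and Cldn8 points are nearly all open because the probe was not detected.

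Between the 2 colon tumour genotypes no claudin passed the test. In LIN28B/Apcmin against Apcmin colon 0 of 7 passed in limma, where 1.18% of all genes did, and 0 of 7 had an unadjusted p under 0.05. The difference of Cldn15 was -0.39, with a 95% interval of -1.15 to 0.38, and that of Cldn4 was 0.09, with an interval of -0.64 to 0.82. The fitted difference of Cldn2 was -0.19 (-0.59 to 0.21), with its 3 LIN28B/Apcmin arrays just below both Apcmin arrays. These intervals still allow changes of Cldn15 of more than 1 log2 unit downward, so the missed threshold does not show equal levels.

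In the small intestine Cldn2, the cation pore of leaky epithelium, was higher in LIN28B tumours and in LIN28B/Apcmin adenomas than in wt mucosa. It read 12.04 and 11.64 in LIN28B/Apcmin, 12.34 and 12.49 in LIN28B and 11.01 and 11.20 in Apcmin tumours, against 10.64 on the wt array. Both groups with LIN28B lay above both Apcmin arrays and above every colon array. LIN28B tumours were 1.77 ± 0.24 higher than wt, 3.41-fold (adjusted p 0.00516), and LIN28B/Apcmin adenomas 1.19 ± 0.24 higher, 2.29-fold (adjusted p 0.0242). In Apcmin adenomas the difference was 0.46 ± 0.24, with an interval of -0.08 to 0.99 (adjusted p 1). All 3 comparisons rest on the same single wt array. The 9 colonocyte markers summed to 1040 to 1090 in LIN28B and 746 to 1330 in LIN28B/Apcmin tumours, against 5970 in wt. In the same order, the 6 goblet cell markers summed to 28600 to 31000, 26500 to 28300 and 52800. The 6 crypt and stem cell markers summed to 2310 to 2520, 3350 to 3380 and 2840. Other cell types moved with Cldn2 in LIN28B tumours: the 5 Paneth cell markers summed to 11800 to 16100 in LIN28B, against 69700 in wt (3 of 5 lower), and the 8 enterocyte markers to 16800 to 39500, against 80100 (2 of 8 lower). The 5 myeloid markers summed to 1940 to 2470 in LIN28B, against 390 in wt (3 of 5 higher), and the 8 gastric and Brunner gland markers to 2860 to 8120, against 49500 (3 of 8 lower). For LIN28B/Apcmin against wt, 2 of 5 Paneth, 5 of 9 smooth muscle and 3 of 8 gastric and Brunner gland markers were lower, and 2 of those 8 and 1 of 5 myeloid markers were higher. No epithelial marker of 8 passed in either comparison, and the part of these shifts in the Cldn2 results was not tested. The LIN28B/Apcmin call was lost without LIN28B/Apcmin small intestinal replicate 2 (adjusted p 0.0547), under median scaling (0.0694) and with arrays of 1 group and title number averaged (0.0524). The title of that replicate names both tumour and mucosa. For LIN28B tumours against wt 1 of 7 claudins passed, where 3.00% of all genes did, with median differences of 0.07 over the 6 detected claudins and 0.05 over all genes. For LIN28B/Apcmin against wt it was 1 of 7, where 5.11% did, with medians of 0.12 and 0.05.

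Set against Apcmin adenomas directly, LIN28B/Apcmin small intestinal adenomas had 0.74 ± 0.20 more Cldn2 (log2), in 2 of 2 arrays above both Apcmin arrays, but at an adjusted p of 0.058 this did not pass. Cldn15 did pass in that comparison. It read 10.80 and 10.33 in LIN28B/Apcmin, 11.35 and 10.73 in LIN28B and 12.03 and 12.19 in Apcmin tumours, against 12.10 on the wt array. The Apcmin and wt arrays lay together at the top, and both groups with LIN28B lay below them. LIN28B/Apcmin minus Apcmin was -1.55 ± 0.38 (log2), 2.92-fold lower (adjusted p 0.0465), close to the threshold. The call was lost in 8 of 14 runs that left out 1 array, among them each Apcmin colon and small intestinal array, each wt colon array, LIN28B/Apcmin colon replicate 3 and LIN28B/Apcmin small intestinal replicate 2 (highest adjusted p 0.308). It was also lost in 4 of 10 other alternatives. Over those runs the difference itself stayed between -1.78 and -1.30. Against wt, Cldn15 differed by -1.53 ± 0.47 in LIN28B/Apcmin (adjusted p 0.0801) and by -1.06 ± 0.47 in LIN28B tumours (adjusted p 0.223). In LIN28B/Apcmin against Apcmin 1 of 7 claudins passed, where 4.56% of all genes did, with medians of -0.11 over the 6 detected claudins and 0.03 over all genes.

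No claudin passed in Apcmin against wt small intestine, where 0.0890% of all genes did and 0 of 7 had an unadjusted p under 0.05 in limma. Cldn4 read 11.53 and 12.37 in Apcmin, against 11.19 in wt, a difference of 0.75 with an interval of -0.23 to 1.73. Cldn15 differed by 0.01 (-1.01 to 1.04). In LIN28B/Apcmin against LIN28B small intestine 0 of 7 passed, where 0.873% of all genes did. Cldn2, Cldn3 and Cldn4 had an unadjusted p under 0.05 in limma, a limit at which the share of all genes is not given here. Cldn4 was the largest of these differences: it read 12.17 and 12.15 in LIN28B/Apcmin, against 10.67 and 11.79 in LIN28B (0.93 ± 0.36, adjusted p 0.253). For Cldn4 the 2 LIN28B arrays lay far apart, and the difference was 0.37 without LIN28B replicate 1, where Cldn2 (-0.65) differed more, and 1.50 without LIN28B replicate 2.

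**Figure D2:**
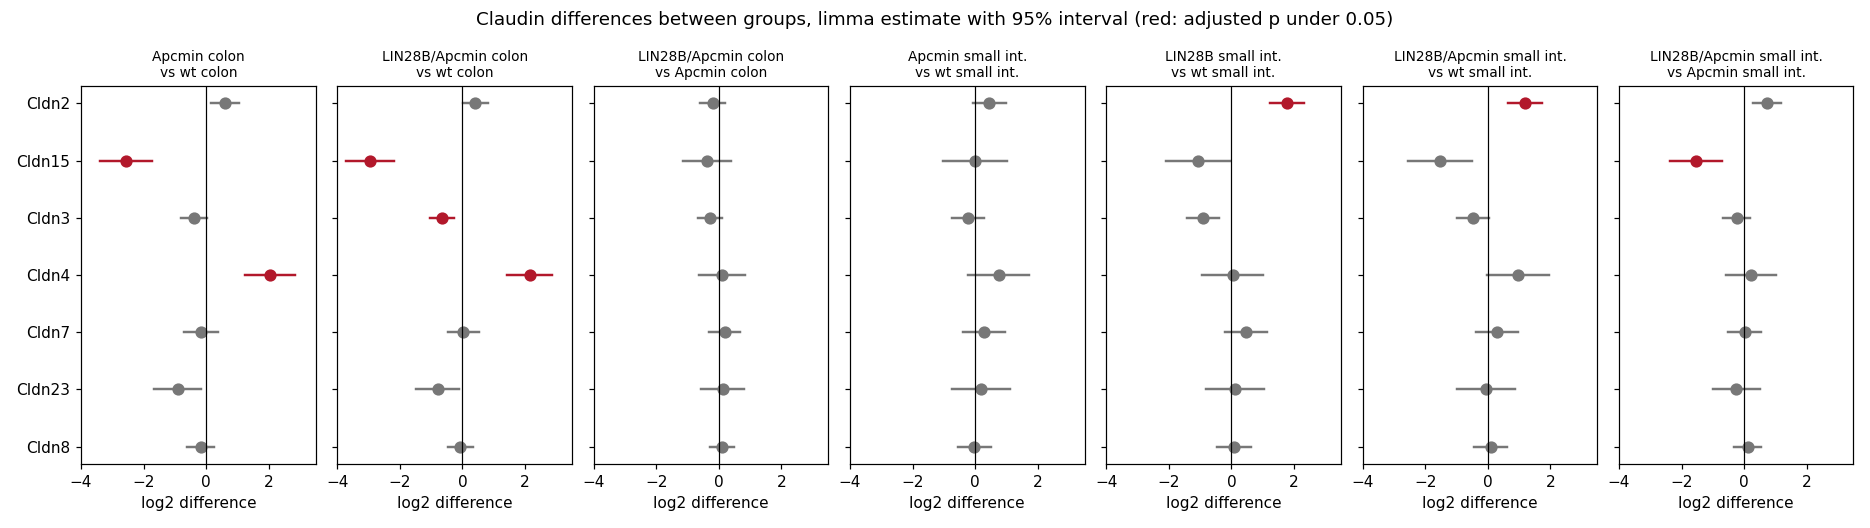
Fitted log2 difference (x axis) with its 95% interval for each claudin (rows) in 7 comparisons (panels, first-named group minus second). Red marks an adjusted p under 0.05: Cldn15 and Cldn4 in both colon tumour groups against wt, Cldn3 in LIN28B/Apcmin colon, Cldn2 in 2 small intestinal comparisons and Cldn15 in LIN28B/Apcmin against Apcmin small intestine.

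Between organs Cldn15 passed the test in both tumour genotypes, with the lower level in the colon. Apcmin colon minus Apcmin small intestine was -3.62 ± 0.38 (log2), 12.3-fold lower (adjusted p 0.000143), and this was the only one of 7 claudins called, where 19.4% of all genes passed. In LIN28B/Apcmin tumours the difference of Cldn15 was -2.47 ± 0.35, 5.52-fold lower in the colon (adjusted p 0.00107). Cldn2 was also lower in LIN28B/Apcmin colon than in LIN28B/Apcmin small intestine. It read 10.76, 11.03 and 10.90 in that colon group, against 12.04 and 11.64, a difference of -0.94 ± 0.18 (adjusted p 0.00616), which was lost with arrays of 1 group and title number averaged (0.0785). These 2 of 7 compare with 15.9% of all genes. In wt colon against wt small intestine Cldn15 differed by -1.05 ± 0.47 (adjusted p 0.273), and 0 of 7 claudins passed in limma, where 6.09% of all genes did. Cldn15 and Cldn23 had an unadjusted p under 0.05, and the share of all genes at that limit is not given here.

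The differences between organs were tested as interactions. For Apcmin against wt, the colon effect on Cldn15 minus the small intestinal effect was -2.57 ± 0.60, an adjusted p of 0.0684, and 0 of 7 claudins passed, where 1.50% of all genes did. For LIN28B/Apcmin against Apcmin the interaction of Cldn2 was -0.93 ± 0.27 (adjusted p 0.157), and 0 of 7 passed, where 0.419% of all genes did. An unadjusted p under 0.05 in limma was reached by Cldn4 and Cldn15 in the Apcmin interaction and by Cldn2 and Cldn15 in the other. The share of all genes at that limit is not given here. Averaged over both organs, LIN28B/Apcmin against Apcmin gave -0.97 ± 0.26 for Cldn15 (adjusted p 0.053), 0 of 7 passed, and 5.67% of all genes did. An organ-specific response of these claudins is therefore not shown by the test of the difference.

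Ordered by group mean, Cldn15 was highest in Apcmin small intestine (12.11), wt small intestine (12.10), wt colon (11.05) and LIN28B small intestine (11.04), then LIN28B/Apcmin small intestine (10.57), Apcmin colon (8.49) and LIN28B/Apcmin colon (8.10). Neighbours in this order overlapped except at 2 steps, from wt small intestine to wt colon and from LIN28B/Apcmin small intestine to Apcmin colon. Cldn2 ran from LIN28B small intestine (12.41) through LIN28B/Apcmin (11.84) and Apcmin small intestine (11.10) to wt colon (10.48), and only Apcmin small intestine and Apcmin colon (11.09) overlapped as neighbours. Cldn4 was highest in LIN28B/Apcmin colon (12.68) and Apcmin colon (12.59), which overlapped, and lowest in wt colon (10.54). Cldn3 was highest in wt colon (11.72) and lowest in LIN28B small intestine (10.45), neither of which overlapped the group next to it, while the 5 groups between overlapped one another step by step. LIN28B small intestinal tumours read 10.45 and 10.45 for Cldn3, against 11.37 on the wt array (-0.92 ± 0.23, adjusted p 0.0612), which did not pass.

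Cldn15 was the one pore former with 3 probes, and they can be set beside each other. Between pairs of them, Pearson's r over the 14 arrays was 0.967, 0.982 and 0.987, as a description of probes hybridised on the same arrays. Probe ILMN_2674906 read 7.06 and 6.94 in Apcmin colon, against 9.76 and 9.55 in wt colon. Probe ILMN_1245622 was not detected in Apcmin colon and read 6.79 and 6.58 in wt colon, at least 3.63-fold lower in Apcmin colon (at the lowest signal still detected on those arrays). All 3 passed in both colon tumour groups against wt, with each probe fitted as its own row. In LIN28B/Apcmin against Apcmin small intestine ILMN_2674906 missed the threshold (-2.01 ± 0.52, adjusted p 0.0541), while ILMN_1245622 gave -1.89 ± 0.27 (adjusted p 0.00649). Other results of Cldn15 depended on the probe as well. ILMN_1245622 passed, and the other probes did not, in wt colon against wt small intestine (-1.43 ± 0.33). The same held for LIN28B/Apcmin against wt small intestine (-2.26 ± 0.33) and for the mean of both organs (-0.91 ± 0.18, adjusted p 0.0219).

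**Figure D3:**
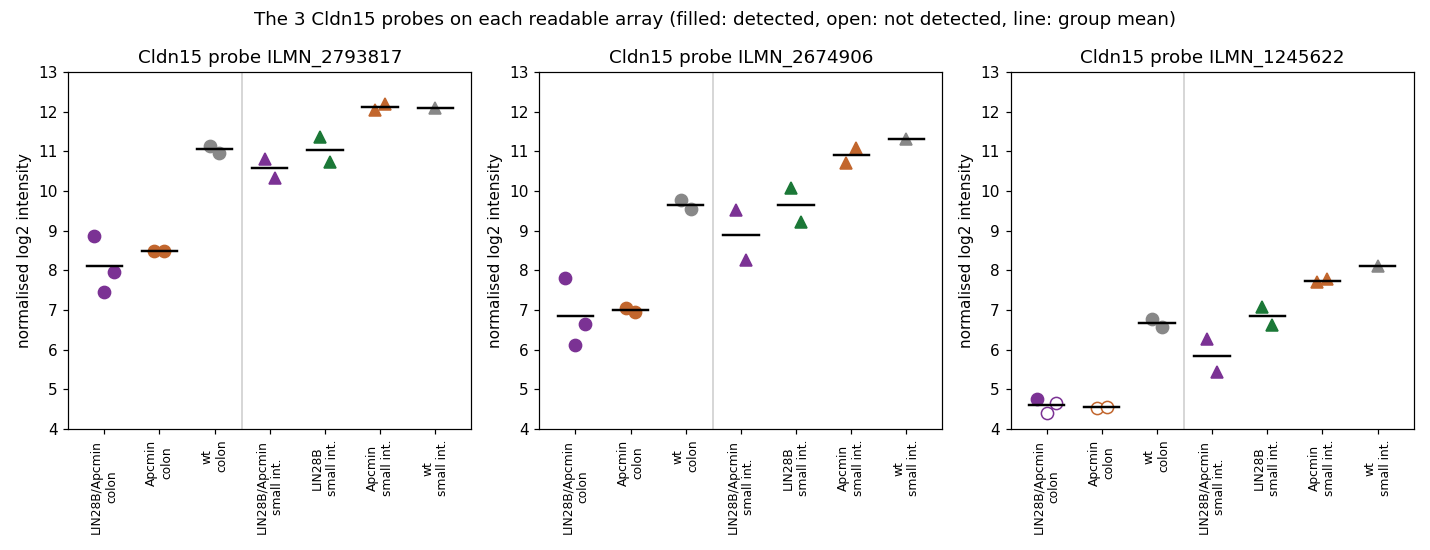
Normalised log2 intensity (y axis) of the 3 Cldn15 probes (panels) on each readable array by group (x axis), with group means as lines and open symbols where the probe was not detected. All 3 probes are low in both colon tumour groups and highest in Apcmin and wt small intestine.

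Cldn23, Cldn7 and Cldn8 passed the test in none of the 14 comparisons. Cldn23 read 10.41, 9.62 and 9.60 in LIN28B/Apcmin colon and 9.88 and 9.61 in Apcmin colon, against 11.03 and 10.28 in wt colon. Its mean was highest in wt colon, but LIN28B/Apcmin replicate 1 lay within the wt range. Apcmin colon differed from wt by -0.92 ± 0.34 (adjusted p 0.102) and LIN28B/Apcmin colon by -0.78 ± 0.31 (adjusted p 0.0862). The 2 wt arrays of Cldn23 lay apart: without wt colon replicate 1 the differences were -0.54 and -0.41, and without wt colon replicate 2 they were -1.29 and -1.16. The LIN28B/Apcmin difference passed without LIN28B/Apcmin colon replicate 1 (-1.05, adjusted p 0.026) and with the series matrix values (adjusted p 0.0354). The small intestinal arrays read 9.45 to 10.15. Cldn7 read 8.96, 8.94 and 9.47 in LIN28B/Apcmin colon and 8.81 and 9.06 in Apcmin colon, against 8.85 and 9.34 in wt colon. It read 8.78 to 9.26 on the 6 small intestinal tumour arrays, against 8.67 on the wt array. The colon groups overlapped, and the wt small intestinal array was the lowest of all. Its fitted difference in Apcmin against wt colon was -0.16, with an interval of -0.70 to 0.38. Cldn8 was detected only on wt colon replicate 1 (4.75) and LIN28B/Apcmin colon replicate 3 (4.90), each at a detection p of 0.0439, and its other probe on 0 of 14 arrays. Its values from 4.35 to 4.90 are at background, so no fold is given and a change was not detectable.

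Across the 14 arrays Cldn2 and Cldn3 ran opposite to each other (r = -0.843), and so did Cldn4 and Cldn15 (r = -0.653), while Cldn2 and Cldn15, both pore formers, gave r = 0.142. These are descriptions without a test, since arrays of a group share their genotype. Patterns were compared with 10262 other genes that passed the filter and had no missing value. Those most like that of Cldn15 were Tmem82 (r = 0.978), Cyp4f14 (0.975) and Fez2 (0.973), each over 14 arrays. For Cldn4 they were Tubb2b (0.918), Cnot3 (0.894) and Axin2 (0.89), for Cldn2 Ush1g (0.952), Asns (0.913) and Sdr16c5 (0.907), and for Cldn3 Tm2d2 (0.903), Nudt4 (0.877) and H2bc14 (0.874). Ush1g was detected on 9 of the 14 arrays and Sdr16c5 on 4, so their patterns hold background values.

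Of 19 other claudins listed, 10 were tested. Cldn6, a claudin of embryonic epithelia, was not detected in wt colon and was higher in both colon tumour groups. It read 5.90 to 6.17 in LIN28B/Apcmin colon and 5.41 to 6.47 in Apcmin colon, at least 2.42-fold (adjusted p 0.0136) and at least 2.33-fold (adjusted p 0.0394) above wt colon. In LIN28B/Apcmin small intestine it read 6.47 to 7.44, against 4.88 to 4.96 in Apcmin small intestine (2.04 ± 0.43, adjusted p 0.0272). Cldn18, the claudin of the stomach, was lower in all 3 small intestinal tumour groups than on the wt array, with LIN28B/Apcmin at 6.16 to 6.99, LIN28B at 6.14 to 7.04 and Apcmin at 4.65 to 6.02 (detected on 1 of 2 arrays), against 8.90 in wt (adjusted p 0.0342, 0.0454 and 0.0392). The 8 gastric and Brunner gland markers, of which Cldn18 is 1, summed to 1370 to 24300 in small intestinal tumours, against 49500 on that wt array, and their part in these results was not tested. In Apcmin against wt colon 1 of 10 other claudins was higher and 0 lower, with a median of 0.14. Of all genes 6.64% were higher and 7.91% lower. In LIN28B/Apcmin against Apcmin small intestine 1 of the 10 was higher and 1 lower, where 4.56% of all genes passed. For the mean of both organs 0 were higher and 1 lower, where 5.67% of all genes passed.

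Other membrane proteins of the tight junction moved both ways in the colon. Of 9 tested, 1 was higher and 2 lower in Apcmin than in wt colon, where 6.64% and 7.91% of all genes were. The median was -0.27, against 0.02 over all genes. Lsr and Ildr1 are angulins, which mark the corners where 3 cells meet. Lsr read 9.60 to 9.71 in Apcmin colon, against 8.29 to 8.33 in wt colon (1.35 ± 0.33, adjusted p 0.0195). Ildr1 read 7.85 to 8.24 in Apcmin colon, against 9.61 to 9.73 in wt colon (-1.62 ± 0.36, adjusted p 0.0126). The adhesion protein Clmp was the other one lower (-1.73 ± 0.31, adjusted p 0.00413). In LIN28B/Apcmin colon these 3 passed in the same directions and F11r, the junctional adhesion molecule A, was 0.84 ± 0.21 higher than wt (adjusted p 0.0143). There 27.9% of all genes passed. Of 13 scaffold and polarity genes 1 passed in Apcmin against wt colon, Arhgef2 (1.36 ± 0.28, adjusted p 0.00846), where 14.6% of all genes did. Tjp1, the scaffold ZO-1, read 7.33 to 7.62 in LIN28B/Apcmin colon, against 6.15 to 6.28 in Apcmin colon, and was 1.25 ± 0.23 higher (adjusted p 0.0331). It was the only one of 13 scaffold genes to pass between the 2 tumour genotypes in the colon, where 1.18% of all genes did. In the small intestine 0 of 9 membrane and 0 of 13 scaffold genes passed in LIN28B/Apcmin against Apcmin, where 4.56% of all genes did.

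Among 17 tested regulators of epithelial junction genes, 0 were higher and 4 lower in Apcmin than in wt colon, with a median of -0.16, where 6.64% of all genes were higher and 7.91% lower. Cdx2, the factor of intestinal identity, read 6.92 to 7.18 in Apcmin colon, against 10.94 to 11.56 in wt colon (-4.20 ± 0.54, adjusted p 0.000788). Klf4, a factor of differentiated surface cells, was also lower (-2.12 ± 0.26, adjusted p 0.000525). Zeb1, a repressor of epithelial genes, and Hnf4a, an activator of them, each differed by -0.93 (adjusted p 0.0233 and 0.039). In LIN28B/Apcmin against wt colon 1 was higher and 6 were lower, where 13.7% and 14.2% of all genes were, led by Vdr, the vitamin D receptor (-4.36 ± 0.74, adjusted p 0.00162). In LIN28B/Apcmin against Apcmin small intestine Klf4 was the only one of 17 to pass, at 7.96 to 8.18 in LIN28B/Apcmin, against 9.89 to 9.98 in Apcmin (-1.86 ± 0.26, adjusted p 0.0053). Of 6 membrane serine proteases and their inhibitors, Spint2, an inhibitor that protects EpCAM from cleavage, was the only one lower in that comparison (-1.18 ± 0.23, adjusted p 0.0237) and in Apcmin against wt colon (-0.87 ± 0.23, adjusted p 0.0282). Of 11 adherens junction and desmosome genes, 0 passed in either of these comparisons, where 4.56% and 14.6% of all genes did. Against wt colon, LIN28B/Apcmin colon had 2 of these genes higher and 1 lower, where 13.7% and 14.2% of all genes were. Higher were Ctnnb1 (beta-catenin, 0.57 ± 0.19, adjusted p 0.0423) and Nectin2 (0.49 ± 0.16, adjusted p 0.0469). The adhesion protein Nectin3 was lower (-1.18 ± 0.24, adjusted p 0.00481). In Apcmin colon against Apcmin small intestine 2 were lower, Nectin3 and Cdh17, an intestinal cadherin (-2.06 ± 0.26, adjusted p 0.000434). In that comparison 19.4% of all genes passed.

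**Figure D4:**
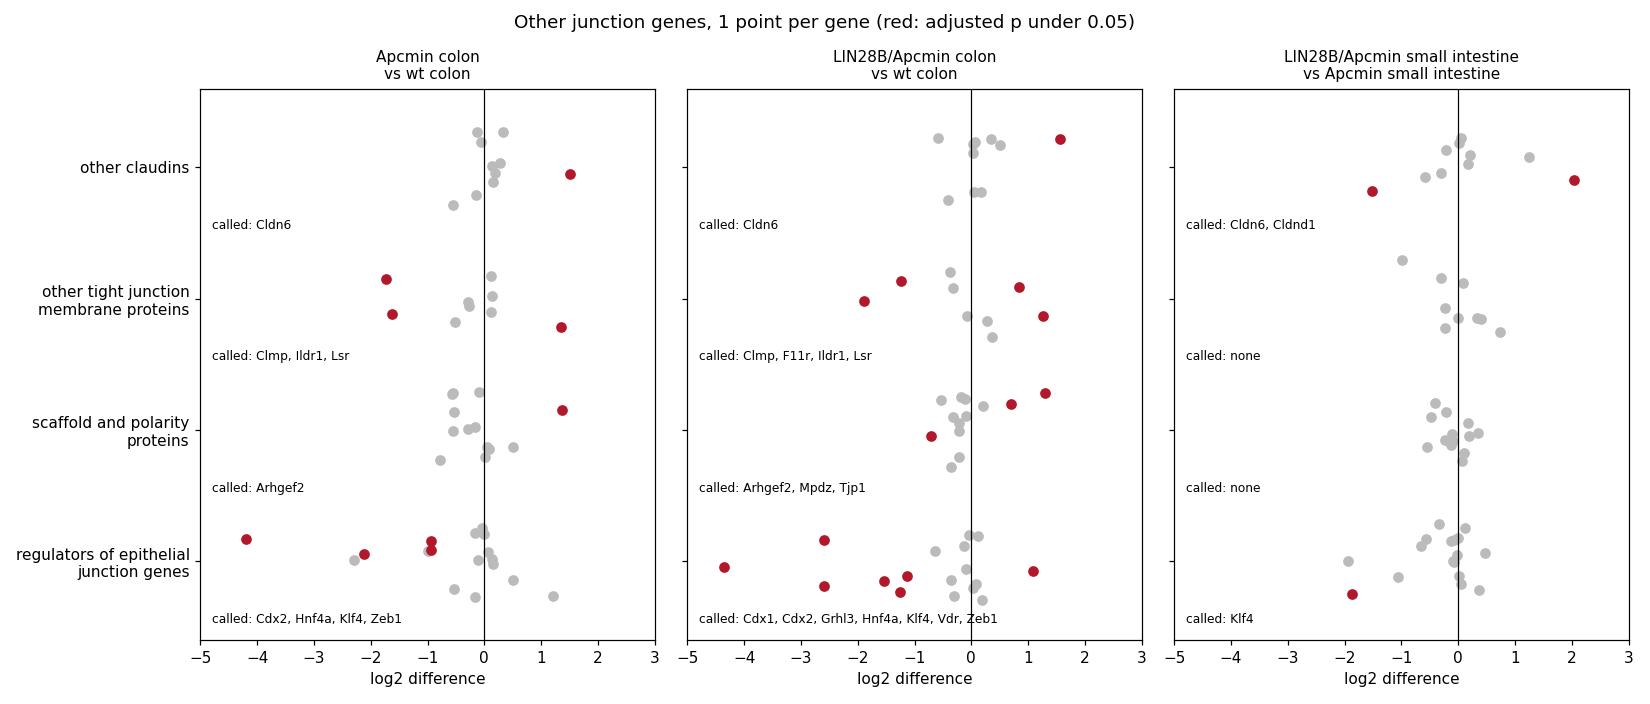
Fitted log2 difference (x axis) of each tested gene (1 point each) in 4 lists (rows; points are spread vertically for view) and 3 comparisons (panels, first-named group minus second), with called genes in red and named. In both colon panels the called regulators lie mostly left of 0, led by Cdx2 or Vdr, and Cldn6 lies to the right in all 3 panels.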

How the data were processed

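Total RNA (TRIZOL) was labelled as biotin cRNA with the Ambion MessageAmp kit and hybridised to Illumina bead arrays, per the labels' protocols. The deposited table holds the bead intensity of 25697 probes on 16 arrays, not normalised between arrays, and the authors' detection p-value of each probe against negative control beads. Scanner software is not given in the sources used here. A second set of deposited intensity values, from the series matrix, served as an alternative; their normalisation is not given in the sources used here. In the probe file, 2 lines without a probe were left out.

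Signals were background corrected with normexp from the detection p-values (offset 16, which understates folds of dim probes), taken to log2, set to missing where the signal was under 25, and quantile normalised over the 14 arrays with at least 20% of probes detected. Probes naming 1 gene and detected at 0.05 on at least 2 arrays were kept, the brightest per gene. limma 3.58.1 (R 4.3.3, data.table version 1.17.8) fitted 7 group means (7 residual degrees of freedom) without a block, because the correlation within title numbers was negative (-0.0643). That value cannot show whether pieces sharing a number are alike. Each repeated number fills a whole group or includes the single wt small intestinal array. All 14 comparisons were two-sided at an adjusted p of 0.05. Precision is limited by the number of arrays. The labels do not say that samples came from separate animals, so p-values measure the spread between these samples. Figures used matplotlib 3.10.9. The fit was also run on simulated data with independent errors, which cannot test the effect of pieces that share a mouse.

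The members and gene lists were chosen with earlier results of these data known. Members are given throughout. Listed genes are given by counts, with values for called genes only and at most 3 of largest difference per list and comparison, and pattern neighbours are the 3 genes of highest correlation with a member.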

Additional observations from a re-analysis of the deposited data

Results flagged for a closer look

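Cldn23 values of Apcmin and wt samples lay in opposite order in the 2 organs: every Apcmin sample lay below both wt samples in the colon, and both Apcmin samples lay above the single wt array in the small intestine. The colon difference minus the small intestinal difference was -1.11 (log2, adjusted p 0.413 by limma's interaction term), which did not pass the threshold, and neither did the difference in the colon (-0.92, adjusted p 0.102) or in the small intestine (0.20, adjusted p 1).

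Cldn2 values of LIN28B/Apcmin and Apcmin tumours lay in opposite order in the 2 organs, though neither difference passed on its own (adjusted p 0.713 in the colon and 0.058 in the small intestine). Its 3 LIN28B/Apcmin colon arrays lay below both Apcmin colon arrays, and its 2 LIN28B/Apcmin small intestinal arrays lay above both Apcmin arrays there. The colon difference minus the small intestinal one was -0.93 (unadjusted p 0.00537, adjusted p 0.157 by limma's interaction term).

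The Cldn8 probe ILMN_2681236, detected on 0 of the 14 arrays used, read 39.8 in deposited intensity on LIN28B/Apcmin colon replicate 4, an array left out for its low detection, where that signal counted as detected. On the 14 arrays it read 39.7 to 64.5.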

How the results depend on the processing

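With all 16 arrays and no signal set to missing, 0 claudins were called in each of the 7 comparisons that had calls. At most 85 of 11370 genes were called in any of them. At most 1 claudin in each had an unadjusted p under 0.05 in limma, as did 128 to 880 of the 11370 genes. Counts of called claudins moved by more than 1.5 times under other settings as follows. For LIN28B/Apcmin against Apcmin small intestine the count was 0 with signals under 25 kept, with median scaling or with no filter on dim probes, and 2 with no background correction or the series matrix values. For LIN28B against wt small intestine it was 2 with no background correction, no filter or the matrix values. For LIN28B/Apcmin against wt small intestine it was 0 with median scaling and 2 with the matrix values. For the mean of both organs it was 1 with no background correction, with title numbers as random blocks, with averaged arrays or with the matrix values. For the Apcmin interaction it was 1 with averaged arrays or the matrix values, and for LIN28B/Apcmin colon against small intestine 1 with averaged arrays. Smaller moves were Apcmin against wt colon at 3 with no background correction or no filter (Cldn2 passing), and LIN28B/Apcmin against wt colon at 4 with the matrix values (Cldn23 passing) and 2 with averaged arrays (Cldn3 lost). The causes were not tested.

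Replicate numbers did not pair the samples in most groups: over 10 pairs of groups the correlation of deviations ran from -0.034 to 0.356, with 2 over 0.1. Those 2 were among small intestinal tumours, Apcmin with LIN28B (0.356) and LIN28B with LIN28B/Apcmin (0.275). With the replicate number as a block, 2 claudins were called in LIN28B/Apcmin against wt small intestine.

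Leaving out 1 array at a time gave 2 to 3 calls in Apcmin against wt colon, 2 to 4 in LIN28B/Apcmin against wt colon, 1 to 2 in LIN28B against wt small intestine, 0 to 2 in LIN28B/Apcmin against wt small intestine, 0 to 1 in LIN28B/Apcmin against Apcmin small intestine, and 0 to 1 in the mean of both organs and the Apcmin interaction. Of 11 called results 8 were kept in every such run, 7 were kept in every other alternative but all 16 arrays, and 0 changed sign. Comparisons with wt small intestine had 13 such runs, since leaving out the single wt array removes the comparison. For the Cldn2 calls against wt these runs therefore cannot test the dependence on that array. Median scaling moved the median of all genes by over 0.1 in 4 of 14 comparisons, by up to -0.18.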
